A study of Mus musculus with 14 samples.

Results

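The genes described here encode voltage-gated sodium channels, voltage-gated calcium channels and HCN channels, together with the auxiliary subunits of the first 2. They were chosen by name: of the symbols on the array, 28 matched the sodium channel alpha (Scn1a and the like) or beta subunits, the pore-forming Cacna1 subunits, the auxiliary Cacna2d and Cacnb subunits, or Hcn, out of 18193 symbols in all. Where a gene had several probe sets, that with the highest mean of the 14 arrays was taken. Of the 28 genes, 18 lay above a dim level of 4 (log2 scale) in at least 3 arrays and were tested, among 10295 genes tested in the series. The values are log2 expression, on which a difference of 1 is a 2-fold change, and levels of different genes come from different probes and are not set against each other.

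All samples were neocortical cells of CD1 mouse embryos electroporated in utero at E14.5 and sorted by FACS for GFP. There were 3 arrays of each vector at 24 h and 4 of each at 48 h, for 4 groups: CtrlGFP is the control vector, and Fezf2GFP carries the transcription factor Fezf2 with GFP. Fezf2 is a transcription factor of corticospinal and other corticofugal neurons, and the series asks what it changes in progenitors that would mainly make callosal neurons. No source used here gives the promoter of the vectors or any pooling of embryos. As the labels do not tie arrays to litters, p-values here reflect only how far these samples vary, and that variation may be technical.

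Voltage-gated sodium channels open on depolarization and carry the rising phase of the action potential; their alpha subunit forms the pore and their beta subunits bind it and act in adhesion. Voltage-gated calcium channels let in calcium for transmitter release, for gene regulation and for low-threshold firing, depending on the Cacna1 subunit, while Cacna2d and Cacnb subunits bring the pore to the membrane. HCN channels open on hyperpolarization and set resting excitability. In the developing cortex many of these genes are known to increase as progenitors leave the cycle and become neurons.

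The probe set of Fezf2 went against the labels. It read 10.82, 11.54 and 11.54 in the CtrlGFP arrays at 24 h and 9.31, 9.50 and 9.52 in those labelled Fezf2GFP. These do not overlap, and the difference was -1.86 (limma adjusted p = 0.0324, SE 0.38). At 48 h the difference of Fezf2 was -0.82 (adjusted p = 0.239, SE 0.33). No source used here says whether the probes lie in the part of Fezf2 that the vector carries, so Fezf2 does not check the labels, and each direction below for Fezf2GFP rests on the labels alone. That fall of Fezf2 passed in 17 of 25 alternative fits; it ended when replicate 2 (adjusted p = 0.141) or 3 (0.121) of CtrlGFP at 24 h was left out, or 1 (0.157), 2 (0.0933) or 3 (0.0929) of Fezf2GFP at 24 h.

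Some arrays stood apart for the channel genes. Fezf2GFP 24 h replicate 1 was the highest of its group for 15 of the 18 tested channel genes, with a median deviation from the group mean of 0.18 against 0.03 over all genes tested. CtrlGFP 48 h replicate 1 was the highest for 12 of 18, with a median deviation of 0.35 against 0.01. In the same group replicates 2 and 3 stood lower, with median deviations of -0.32 and -0.24 (all genes -0.06 and 0.08), and were the lowest for 8 and 9 of 18. The same arrays were the highest of their groups for markers of GABAergic neurons, whose summed level (log2) was 10.66 in Fezf2GFP 24 h replicate 1 against 6.98 and 8.87 in the other arrays of that group, and 10.47 in CtrlGFP 48 h replicate 1 against 7.68 to 8.98. In CtrlGFP at 24 h it ran from 7.08 to 7.35 and in Fezf2GFP at 48 h from 9.31 to 10.35. All 7 GABAergic markers were tested and 0 passed in any of the 5 comparisons, with a median log2 fold change for Fezf2GFP of 1.25 at 24 h and 0.71 at 48 h; their part in the channel results was not tested.

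More channel genes changed with time after electroporation than between the vectors. From 24 h to 48 h, 8 of the 18 tested genes rose with CtrlGFP and 8 rose with Fezf2GFP, and 0 fell with either (limma, adjusted p under 0.05). Over all genes tested, 5.88% rose and 6.69% fell with CtrlGFP (12.6% in all), and 6.38% rose and 5.67% fell with Fezf2GFP (12.1% in all). The arrays labelled Fezf2GFP differed from CtrlGFP arrays in 1 channel gene at 24 h, Cacna1h, and in 1 at 48 h, Cacnb1, both higher. Over all genes, 1.06% passed at 24 h and 3.13% at 48 h (0.806% and 2.70% higher, 0.253% and 0.427% lower), so the rate among 18 genes rests on single genes. Leaving out single arrays gave 0 to 2 channel genes at 24 h and 0 to 3 at 48 h. The count of rises was 6 to 9 with CtrlGFP and 5 to 11 with Fezf2GFP, the lowest without Fezf2GFP 24 h replicate 3.

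The median log2 fold change of the 18 tested channel genes was 0.97 with time in CtrlGFP and 0.84 in Fezf2GFP, against -0.02 and -0.01 over all genes tested; over all 28 it was 0.52 and 0.40. For Fezf2GFP against CtrlGFP the median was 0.58 at 24 h and 0.33 at 48 h, against 0.06 over all genes at both times, and -0.01 and 0.01 over all 28. Passing the filter favours genes that are high in some group, so these medians describe the genes and carry no test. Fold changes with time lay above 0 for 16 of 18 in CtrlGFP and 17 of 18 in Fezf2GFP, and above 0 in both for 16. These comparisons take group means from different arrays but share each gene's estimate of spread, so their calls are not independent. The comparisons called 6 genes in common out of 10 called in either: Scn2a, Scn3a, Scn3b, Cacna1b, Cacna1h and Cacnb4. All 48 h arrays lay above all 24 h arrays for 13 of 18 channel genes with CtrlGFP and 11 of 18 with Fezf2GFP, as for 9.93% and 13.3% of all genes tested (22.7% and 26.2% without overlap in either direction, 12.8% and 12.9% below); for 0 channel genes did they all lie below.

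**Figure D1:**
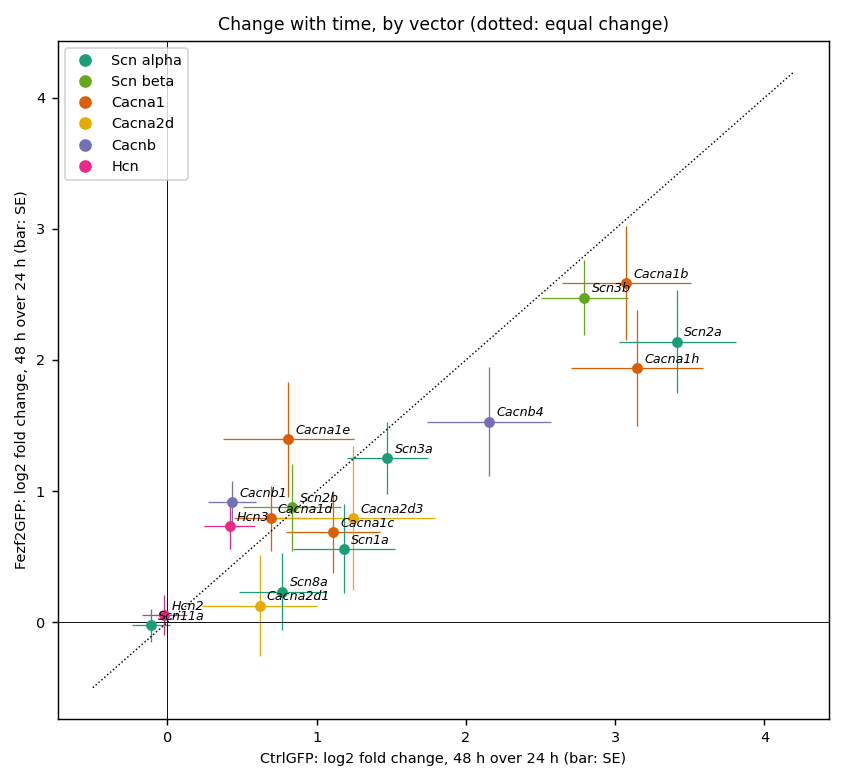
Log2 fold change from 24 h to 48 h with CtrlGFP (x axis) and with Fezf2GFP (y axis) for the 18 tested channel genes, coloured by family, with bars of 1 SE and a dotted line of equal change. Scn2a, Scn3b, Cacna1b and Cacna1h lie farthest to the upper right, between 2.79 and 3.41 with CtrlGFP, while Hcn2 and Scn11a lie near 0 on both axes.

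The difference between the Fezf2GFP effects at 48 h and 24 h, which is also the difference between the vectors in their change with time, passed in 0 of 18 channel genes (limma; 1 at an unadjusted p under 0.05, Scn2a) and in 0.0971% of all genes (0.0680% higher, 0.0291% lower). No channel gene was therefore shown to change with time differently under the 2 vectors. The lowest adjusted p was 0.989, that of Scn2a, at -1.27 (95% interval -2.47 to -0.07). A further probe set of Scn2a, above the dim level on all 14 arrays, went the other way. Its difference between the vectors was larger at 48 h (1.44) than at 24 h (0.98).

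Among sodium channel alpha subunits, Scn2a, a main pore of axons in early life, had the largest rise with time. Scn2a read 6.04, 6.12 and 6.49 in CtrlGFP at 24 h, and 10.60, 9.10, 9.02 and 9.81 at 48 h. With Fezf2GFP it read 8.91, 7.97 and 7.36 at 24 h, and 10.43, 9.88, 10.18 and 10.40 at 48 h. The 4 groups of Scn2a overlap only between the vectors at 48 h. Its rise was 3.41 with CtrlGFP (adjusted p = 0.000227, SE 0.39) and 2.14 with Fezf2GFP (adjusted p = 0.00372, SE 0.39), and both passed in 25 of 25 alternative fits. With the mean of all 4 probe sets of Scn2a, 2 of which lay above the dim level in at least 3 arrays, they were 1.34 and 1.15. At 24 h all Fezf2GFP arrays of Scn2a lay above all CtrlGFP arrays, by 1.86 (adjusted p = 0.0571, SE 0.42), which did not pass; it passed in 5 of 25 alternative fits, among them those without CtrlGFP 48 h replicate 1 (adjusted p = 0.0227), CtrlGFP 48 h replicate 2 (0.0455) or Fezf2GFP 24 h replicate 3 (0.0408). At 48 h the difference was 0.59 (adjusted p = 0.500, SE 0.36). A further probe set of Scn2a had the same signs, with log2 differences of 0.98 at 24 h and 1.44 at 48 h between vectors, and of 2.02 and 2.48 with time. It did not repeat the order of the chosen probe set, whose vector difference was larger at 24 h and whose rise was larger with CtrlGFP.

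Scn3a, the alpha subunit best known from fetal brain, rose in both vectors by a smaller amount. It read 8.30, 8.75 and 8.42 in CtrlGFP at 24 h and 10.18, 9.76, 9.59 and 10.33 at 48 h, a rise of 1.47 (adjusted p = 0.00332, SE 0.27). With Fezf2GFP it read 9.08, 8.88 and 8.86, then 10.24, 9.49, 10.25 and 10.81, a rise of 1.25 (adjusted p = 0.0096, SE 0.27). All 48 h arrays of Scn3a exceeded all 24 h arrays. Averaging its 2 probe sets, 1 of which was dim, gave rises of 0.73 and 0.62, and both passed. The vectors differed by 0.45 at 24 h (adjusted p = 0.697, SE 0.29), without overlap, and by 0.23 at 48 h (adjusted p = 0.742, SE 0.25).

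Scn1a, an alpha subunit prominent in inhibitory neurons of the mature cortex, read 6.96, 7.51 and 8.26 in CtrlGFP at 24 h and 9.19, 8.70, 8.50 and 8.67 at 48 h. This rise of 1.18 (adjusted p = 0.0375, SE 0.34) passed in 14 of 25 alternative fits. It ended without CtrlGFP 24 h replicate 1 (adjusted p = 0.166) or 2 (0.107), without CtrlGFP 48 h replicate 1 (0.101), 2 (0.0519) or 4 (0.0699), and without Fezf2GFP 24 h replicate 2 (0.0537). The mean of its 3 probe sets gave 0.51 (adjusted p = 0.114). With Fezf2GFP, Scn1a read 7.61, 8.12 and 8.50, then 8.64, 8.01, 9.26 and 8.63, a change of 0.56 that did not pass (adjusted p = 0.355, SE 0.34). The arrays of these 2 groups of Scn1a overlap, and the vectors differed by 0.50 at 24 h (adjusted p = 0.714, SE 0.36) and -0.13 at 48 h (adjusted p = 0.900, SE 0.31).

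Scn8a, an alpha subunit of the axon initial segment and nodes in mature neurons, passed in no comparison. It read 7.80, 8.51 and 8.77 in CtrlGFP and 9.41, 9.16 and 9.24 in Fezf2GFP at 24 h, without overlap (0.91, SE 0.31, adjusted p = 0.302). At 48 h it read 9.23, 8.90, 8.79 and 9.60 against 9.70, 9.05, 10.10 and 9.16, with overlap (0.37, SE 0.27, adjusted p = 0.586). Its change with time was 0.77 in CtrlGFP (adjusted p = 0.114, SE 0.29) and 0.23 in Fezf2GFP (adjusted p = 0.707, SE 0.29). Scn11a, a channel of sensory neurons, entered the tests from just above the dim level in 5 of 14 arrays, and its values ran only from 3.95 to 4.29.

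**Figure D2:**
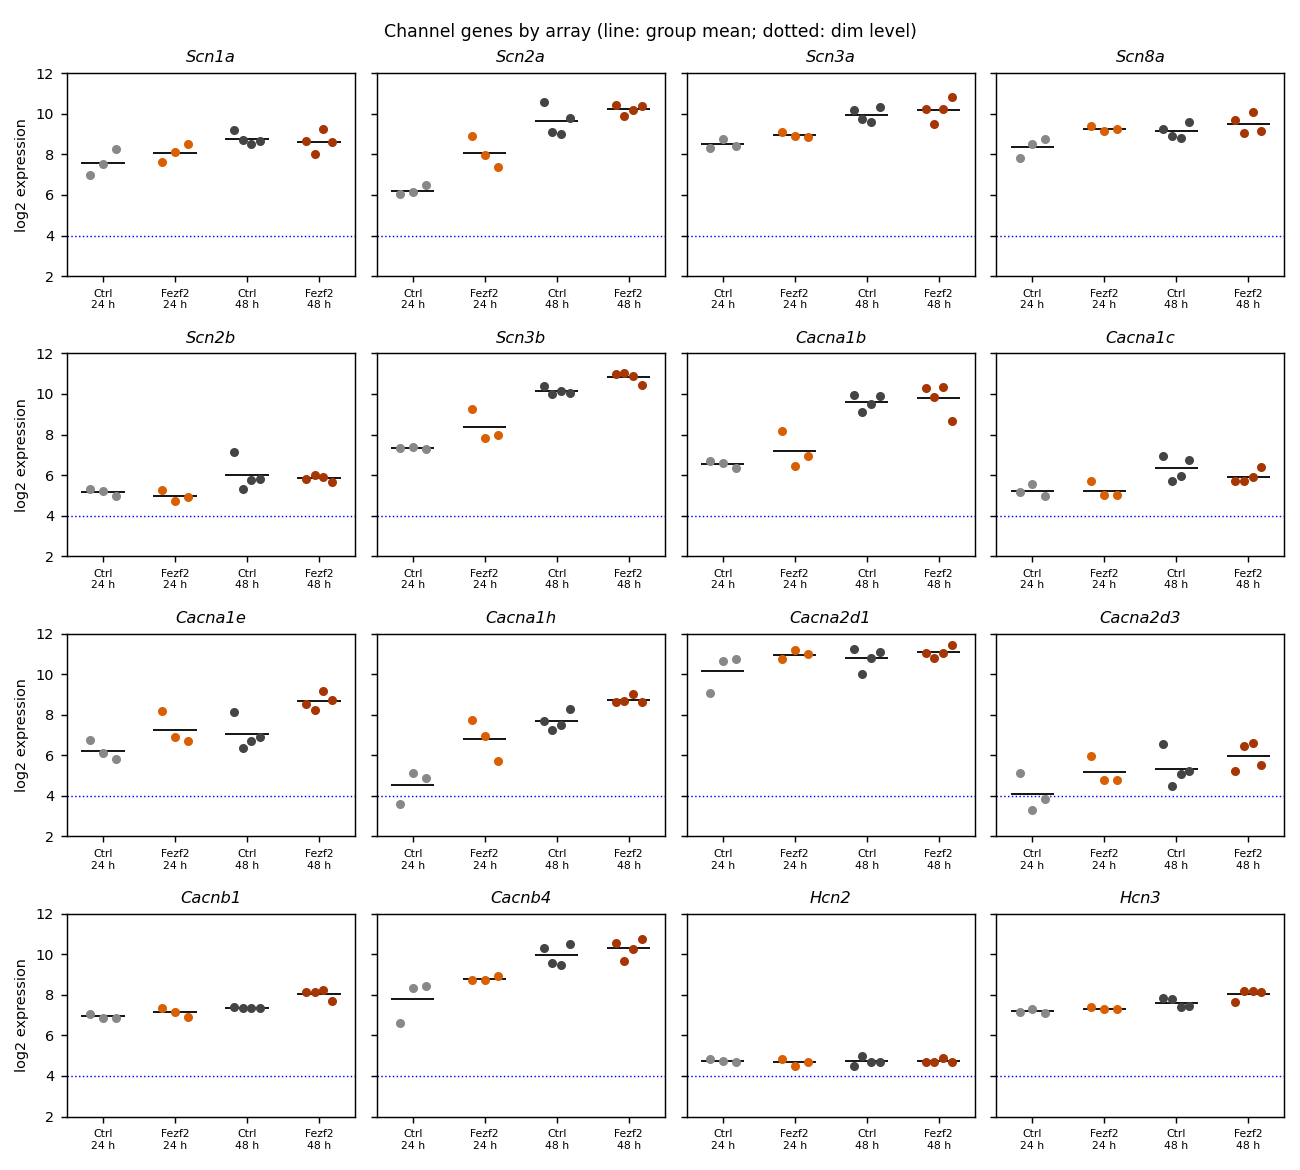
Log2 expression of 16 channel genes in each array (points) with the group mean (line), for CtrlGFP and Fezf2GFP at 24 h (3 arrays each) and 48 h (4 arrays each); the dotted line is the dim level of 4. Scn2a, Scn3b, Cacna1b and Cacna1h step up between 24 h and 48 h in both vectors, while Hcn2 stays between 4.49 and 5.0; panels are different probe sets, so their heights are not set against each other.

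Of the beta subunits, Scn3b, which binds alpha subunits without a disulfide bond, had the smallest p among the channel genes for the change with time in both vectors. It read 7.35, 7.40 and 7.29 in CtrlGFP at 24 h and 10.37, 9.99, 10.13 and 10.07 at 48 h. This was a rise of 2.79 (adjusted p = 0.000109, SE 0.29). With Fezf2GFP, Scn3b read 9.27, 7.82 and 7.96 at 24 h and 10.97, 11.01, 10.89 and 10.44 at 48 h, a rise of 2.48 (adjusted p = 0.000262, SE 0.29). Both rises passed in 25 of 25 alternative fits. They were 1.39 and 1.24 when its 2 probe sets, the other being dim, were averaged. All Fezf2GFP arrays of Scn3b exceeded all CtrlGFP arrays at both times, by 1.00 at 24 h (adjusted p = 0.207, SE 0.31) and 0.69 at 48 h (adjusted p = 0.222, SE 0.27), and neither passed; without Fezf2GFP 24 h replicate 1, the array with the highest value of its group, the 48 h difference passed (adjusted p = 0.034).

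Scn2b, a beta subunit that is linked to the alpha subunit by a disulfide bond, read 5.33, 5.21 and 4.97 in CtrlGFP at 24 h and 7.14, 5.34, 5.75 and 5.79 at 48 h (0.84, SE 0.33, adjusted p = 0.129). With Fezf2GFP, Scn2b read 5.28, 4.70 and 4.91, then 5.80, 6.02, 5.90 and 5.64 (0.88, SE 0.33, adjusted p = 0.114). The arrays of the 2 times did not overlap with either vector, and neither change passed. The change with CtrlGFP passed in 2 of 24 alternative fits, without CtrlGFP 48 h replicate 2 (adjusted p = 0.0436) and with array weights (0.00779). That with Fezf2GFP passed in 3 of 24: with array weights (0.00662), in a fit to both Fezf2GFP groups alone (0.0228) and without CtrlGFP 48 h replicate 1 (0.0104). The vectors overlapped at both times, with Scn2b at -0.21 at 24 h (adjusted p = 0.863, SE 0.35) and -0.17 at 48 h (adjusted p = 0.857, SE 0.31).

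Among the calcium channel pores, Cacna1h, a low-threshold T-type channel, was the channel gene that passed between the vectors at 24 h, higher in arrays labelled Fezf2GFP. Cacna1h read 3.59, 5.13 and 4.89 in CtrlGFP, with 1 of 3 arrays below the dim level, and 7.74, 6.93 and 5.73 in Fezf2GFP. Every Fezf2GFP array lay above every CtrlGFP array, by 2.27 (adjusted p = 0.0377, SE 0.47). At 48 h Cacna1h read 7.70, 7.27, 7.49 and 8.27 against 8.64, 8.67, 9.04 and 8.62, again without overlap, but the difference of 1.06 did not pass (adjusted p = 0.220, SE 0.41). It rose with time by 3.15 in CtrlGFP (adjusted p = 0.000613, SE 0.44) and 1.94 in Fezf2GFP (adjusted p = 0.0122, SE 0.44). The latter ended without Fezf2GFP 24 h replicate 3 (adjusted p = 0.0673). The mean of both probe sets of Cacna1h gave rises of 1.58 and 1.02.

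The 24 h call of Cacna1h passed in 9 of 25 alternative fits. It ended without CtrlGFP 24 h replicate 1 (log2 fold change 1.80, adjusted p = 0.137), 2 (0.0559) or 3 (0.0718), and without Fezf2GFP 24 h replicate 1 (1.80, adjusted p = 0.194) or 2 (0.116). Leaving out 48 h arrays, which enter through the shared spread, also ended it: CtrlGFP 48 h replicate 1 (0.0527) or 3 (0.0569), and Fezf2GFP 48 h replicate 1 (0.0569), 2 (0.0579), 3 (0.0533) or 4 (0.0523). Its adjusted p was 0.102 with the replicate block. With the mean of both probe sets of Cacna1h, 1 of which lay above the dim level in at least 3 arrays, its log2 fold change was 1.13 (adjusted p = 0.0611). With CtrlGFP 48 h replicate 2 left out, or Fezf2GFP 24 h replicate 3, 2 channel genes passed at 24 h.

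**Figure D3:**
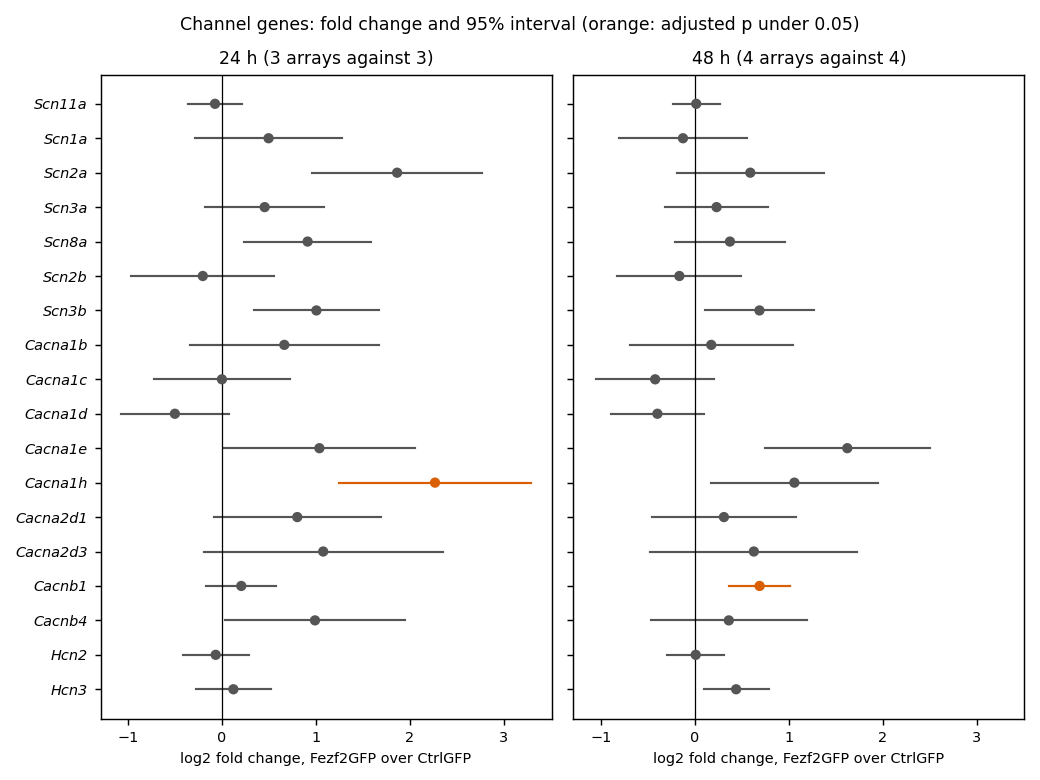
Log2 fold change of Fezf2GFP over CtrlGFP at 24 h (left) and 48 h (right) for the 18 tested channel genes, with 95% intervals from limma; orange marks an adjusted p under 0.05. Cacna1h at 24 h (2.27, interval 1.24 to 3.29) and Cacnb1 at 48 h (0.69, interval 0.36 to 1.01) are the marked genes, and Cacna1e at 48 h (1.62, interval 0.74 to 2.50) has an adjusted p of 0.0504.

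Cacna1e, the pore of R-type calcium currents, came close to the threshold at 48 h. It read 8.15, 6.36, 6.72 and 6.90 in CtrlGFP and 8.51, 8.22, 9.17 and 8.71 in Fezf2GFP. The groups did not overlap, and the difference of 1.62 (adjusted p = 0.0504, SE 0.41) did not pass. It passed without CtrlGFP 48 h replicate 1, the control array closest to the Fezf2GFP arrays (1.99, adjusted p = 0.0117), without replicate 1 of CtrlGFP (0.0482) or of Fezf2GFP (0.0302) at 24 h, and with the replicate block (0.0325). At 24 h Cacna1e read 6.74, 6.13 and 5.80 in CtrlGFP and 8.18, 6.89 and 6.70 in Fezf2GFP, which overlap (1.04, SE 0.47, adjusted p = 0.550). Its change with time was 0.81 in CtrlGFP (adjusted p = 0.298, SE 0.44) and 1.40 in Fezf2GFP (adjusted p = 0.0581, SE 0.44). The latter passed without CtrlGFP 48 h replicate 1 (0.0256), CtrlGFP 48 h replicate 2 (0.0462) or Fezf2GFP 24 h replicate 1 (0.019).

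Cacna1b, the N-type pore that serves transmitter release, rose with time in both vectors. It read 6.68, 6.58 and 6.36 in CtrlGFP at 24 h and 9.96, 9.11, 9.49 and 9.89 at 48 h, a rise of 3.07 (adjusted p = 0.000624, SE 0.43). With Fezf2GFP, Cacna1b read 8.19, 6.47 and 6.95, then 10.29, 9.83, 10.36 and 8.67, a rise of 2.59 (adjusted p = 0.00226, SE 0.43). All 48 h arrays lay above all 24 h arrays, and both rises passed in 25 of 25 alternative fits. Both further probe sets of Cacna1b above the dim level had rises of 3.35 and 2.97 with CtrlGFP, and 2.12 and 2.81 with Fezf2GFP. The vectors overlapped for Cacna1b, with differences of 0.66 at 24 h (adjusted p = 0.711, SE 0.46) and 0.17 at 48 h (adjusted p = 0.893, SE 0.40). Between the vectors the same further probe sets stood at 1.19 and 0.90 at 24 h, and at -0.05 and 0.73 at 48 h.

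Cacna1c, an L-type pore of the kind that links activity to gene expression, read 5.16, 5.57 and 4.98 in CtrlGFP at 24 h and 6.96, 5.73, 5.98 and 6.74 at 48 h, a rise of 1.11 (adjusted p = 0.0343, SE 0.31). With Fezf2GFP, Cacna1c read 5.72, 5.0 and 5.0, then 5.72, 5.69, 5.89 and 6.40 (0.69, SE 0.31, adjusted p = 0.196). The CtrlGFP arrays of the 2 times are separate and the Fezf2GFP arrays overlap. The rise passed in 18 of 25 alternative fits and ended without CtrlGFP 24 h replicate 1 (adjusted p = 0.0966) or 3 (0.121), and without CtrlGFP 48 h replicate 1 (0.092) or 4 (0.0945). Between the vectors Cacna1c stood at 0.00 at 24 h (95% interval -0.72 to 0.72) and -0.42 at 48 h (interval -1.05 to 0.20). A further probe set of Cacna1c, above the dim level on 9 of 14 arrays, had larger rises, of 2.15 with CtrlGFP and 1.69 with Fezf2GFP. Its differences between the vectors were 0.33 at 24 h and -0.13 at 48 h. Cacna1d, the other L-type pore tested, was the channel gene whose Fezf2GFP arrays all lay below the CtrlGFP arrays at 24 h, by -0.50 (adjusted p = 0.660, SE 0.27), and at 48 h it stood at -0.40 (adjusted p = 0.462, SE 0.23). Its values ran from 6.53 to 8.45, and its changes with time, 0.69 and 0.79, did not pass (adjusted p = 0.0919 and 0.0556).

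In all, 6 channel genes had every Fezf2GFP array above every CtrlGFP array at 24 h and 1 had them below, against 12.6% and 7.0% of all genes tested (19.6% without overlap in all). At 48 h this held for 4 and 0 of 18 (7.35% and 1.72% of all genes, 9.07% in all).

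Of the Cacna2d subunits, which lie outside the membrane and increase channel density, none passed. Cacna2d1, the receptor of gabapentin, read 9.07, 10.67 and 10.74 in CtrlGFP and 10.72, 11.16 and 10.98 in Fezf2GFP at 24 h. At 48 h it read 11.22, 9.99, 10.81 and 11.08 against 11.03, 10.81, 11.05 and 11.45. The groups overlap at both times, with differences of 0.80 (adjusted p = 0.647, SE 0.41) and 0.31 (adjusted p = 0.756, SE 0.36) and changes with time of 0.62 and 0.13 (adjusted p = 0.377 and 0.908). Cacna2d3, a subunit of neurons, read 5.15, 3.28 and 3.83 in CtrlGFP at 24 h, with 2 of 3 arrays below the dim level, and 5.95, 4.77 and 4.77 in Fezf2GFP. At 48 h Cacna2d3 read 6.54, 4.46, 5.10 and 5.23 against 5.22, 6.46, 6.63 and 5.53. Its arrays overlapped between all groups compared. It stood at 1.08 at 24 h (adjusted p = 0.669, SE 0.59) and 0.63 at 48 h (adjusted p = 0.630, SE 0.51), with changes in time of 1.24 and 0.79 (adjusted p = 0.184 and 0.432).

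The cytoplasmic beta subunit Cacnb1, best known from skeletal muscle and also present in brain, was the channel gene that passed between the vectors at 48 h, again higher with Fezf2GFP. It read 7.42, 7.36, 7.34 and 7.34 in CtrlGFP and 8.14, 8.15, 8.24 and 7.68 in Fezf2GFP. All Fezf2GFP arrays lay above the narrow range of the controls, by 0.69 (adjusted p = 0.0256, SE 0.15). At 24 h Cacnb1 read 7.05, 6.88 and 6.87 against 7.33, 7.17 and 6.91, with overlap (0.20, SE 0.17, adjusted p = 0.731). It rose with time by 0.92 in Fezf2GFP (adjusted p = 0.00298, SE 0.16) and stood at 0.43 in CtrlGFP (adjusted p = 0.108, SE 0.16), both without overlap. With the mean of its 4 probe sets the rise in Fezf2GFP was 0.21 and did not pass (adjusted p = 0.150). The difference between the rises, 0.48 (adjusted p = 0.998, SE 0.23), did not pass.

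The 48 h call of Cacnb1 passed in 16 of 25 alternative fits. It ended without CtrlGFP 48 h replicate 3 (adjusted p = 0.0665) or 4 (0.0733), and without Fezf2GFP 48 h replicate 1 (0.0536), 2 (0.0707) or 3 (0.0678), after quantile normalization (0.0973) and after removing the dependence on gene span (0.0897). Of 4 probe sets of Cacnb1, 1 lay above the dim level in at least 3 arrays, and with their mean the log2 fold change was 0.11 (adjusted p = 0.621). Without CtrlGFP 24 h replicate 1 or CtrlGFP 48 h replicate 1, 2 channel genes passed at 48 h, and without Fezf2GFP 24 h replicate 1, 3 did.

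Cacnb4, the beta subunit of many presynaptic channels, rose with time in both vectors. It read 6.63, 8.34 and 8.43 in CtrlGFP at 24 h and 10.31, 9.55, 9.46 and 10.51 at 48 h, a rise of 2.16 (adjusted p = 0.00419, SE 0.42). With Fezf2GFP, Cacnb4 read 8.71, 8.74 and 8.91, then 10.56, 9.68, 10.28 and 10.75, a rise of 1.53 (adjusted p = 0.0299, SE 0.42). The 48 h arrays exceeded the 24 h arrays throughout. The second rise passed in 17 of 25 alternative fits and ended without Fezf2GFP 24 h replicate 1 (adjusted p = 0.0831), 2 (0.0993) or 3 (0.0844), and without Fezf2GFP 48 h replicate 1 (0.0697), 3 (0.0616) or 4 (0.065). Between the vectors Cacnb4 stood at 0.99 at 24 h (adjusted p = 0.538, SE 0.44), without overlap, and 0.36 at 48 h (adjusted p = 0.732, SE 0.38).

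Of the HCN pores, Hcn3, a slowly gated member, rose with time in Fezf2GFP. It read 7.38, 7.28 and 7.30 at 24 h and 7.65, 8.19, 8.21 and 8.16 at 48 h, without overlap (0.73, SE 0.17, adjusted p = 0.0144). This ended without Fezf2GFP 24 h replicate 2 (adjusted p = 0.0651) or 3 (0.0617). With CtrlGFP, Hcn3 read 7.18, 7.29 and 7.13, then 7.83, 7.79, 7.40 and 7.44, also without overlap (0.42, SE 0.17, adjusted p = 0.152). Between the vectors Hcn3 stood at 0.12 at 24 h (adjusted p = 0.845, SE 0.18) and 0.44 at 48 h (adjusted p = 0.191, SE 0.16). Hcn2, a member found widely in brain and heart, stayed close to the dim level on every array. It read 4.83, 4.72 and 4.68 in CtrlGFP and 4.85, 4.49 and 4.69 in Fezf2GFP at 24 h, then 4.50, 5.0, 4.70 and 4.69 against 4.68, 4.68, 4.90 and 4.67. All groups of Hcn2 overlap, and its log2 fold changes were -0.07 at 24 h (95% interval -0.42 to 0.28), 0.01 at 48 h (interval -0.30 to 0.31), -0.02 with time in CtrlGFP (interval -0.35 to 0.31) and 0.05 in Fezf2GFP (interval -0.27 to 0.38).

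The other 10 channel genes were not tested, with values between 1.85 and 4.25. They were the pores Cacna1a (P/Q type), Cacna1f and Cacna1s (L type of retina and skeletal muscle) and Cacna1g (T type), the subunits Cacna2d4, Cacnb2 and Scn4b, and the alpha subunits Scn7a, Scn9a and Scn10a, the last 2 known from sensory neurons. Nearest to the threshold from outside was Scn9a, above the dim level in 2 of 14 arrays (3.52 to 4.25); Scn7a ran from 3.69 to 3.87. Cacna1g lay between 1.85 and 1.93 on all arrays and Cacna1a between 2.98 and 3.69. Such values have no order and do not show that a transcript is absent.

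Several probe sets measured some of the genes. Of 41 further probe sets, 11 (of 6 tested genes) lay above the dim level in at least 3 arrays. Their sign matched that of the chosen probe set for 8 of 11 at 24 h, 6 of 11 at 48 h, 9 of 11 with time in CtrlGFP and 8 of 11 with time in Fezf2GFP. The mismatches included those of Cacna2d1, whose 4 further probe sets stood between -0.30 and -0.17 at 48 h, against 0.31 for the chosen one.

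The windows around the annotated starts of genes called in both time comparisons or with Fezf2GFP are shown because the results turn on these genes; 4 of the 7 are in the RefSeq promoter table of GRCm38.p6. Each window runs from 250 bases before to 50 bases after the start; where the table lists several starts (2 for Scn2a, 2 for Cacnb1, 3 for Cacnb4), the most upstream is shown. The windows are chr2:65620519-65620818 (plus strand) for Scn2a, chr2:24763103-24763402 (minus strand) for Cacna1b, chr11:98022578-98022877 (minus strand) for Cacnb1 and chr2:52676094-52676393 (minus strand) for Cacnb4. Capitals mark the searched motifs on either strand: CAGCACC and GGACAG, parts of the RE1 element bound by the repressor REST, and the E boxes CAGATG and CAGCTG, of a kind bound by neurogenic bHLH factors.
Scn2a: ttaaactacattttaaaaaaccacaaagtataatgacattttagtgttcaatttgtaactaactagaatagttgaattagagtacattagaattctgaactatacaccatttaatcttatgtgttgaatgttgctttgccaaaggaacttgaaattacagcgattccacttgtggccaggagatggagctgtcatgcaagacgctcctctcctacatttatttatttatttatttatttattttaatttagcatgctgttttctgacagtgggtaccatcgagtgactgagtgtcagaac
Cacna1b: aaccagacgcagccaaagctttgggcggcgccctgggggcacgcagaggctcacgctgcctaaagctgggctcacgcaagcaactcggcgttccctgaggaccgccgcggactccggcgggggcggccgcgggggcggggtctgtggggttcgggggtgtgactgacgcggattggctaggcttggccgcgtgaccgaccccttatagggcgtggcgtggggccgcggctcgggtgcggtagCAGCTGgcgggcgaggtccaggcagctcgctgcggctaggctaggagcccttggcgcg
Cacnb1: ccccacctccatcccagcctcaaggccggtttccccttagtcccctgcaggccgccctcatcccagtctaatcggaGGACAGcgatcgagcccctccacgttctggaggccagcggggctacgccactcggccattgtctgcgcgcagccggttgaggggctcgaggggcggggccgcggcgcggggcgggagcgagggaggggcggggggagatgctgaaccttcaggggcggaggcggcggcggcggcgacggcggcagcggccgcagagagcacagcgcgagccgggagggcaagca
Cacnb4: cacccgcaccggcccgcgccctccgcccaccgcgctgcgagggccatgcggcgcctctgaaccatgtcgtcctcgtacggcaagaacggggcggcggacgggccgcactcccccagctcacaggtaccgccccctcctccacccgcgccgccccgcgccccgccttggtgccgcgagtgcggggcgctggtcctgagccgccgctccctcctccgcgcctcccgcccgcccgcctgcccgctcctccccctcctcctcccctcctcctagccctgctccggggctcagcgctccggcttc
The window of Scn2a has 33.0% G and C and 3 CpG, while those of Cacna1b (72.3%, 35 CpG), Cacnb1 (73.7%, 34 CpG) and Cacnb4 (78.3%, 40 CpG) are GC-rich; the median over all 32851 windows in the table is 52.7%. The window of Cacna1b holds 1 CAGCTG and that of Cacnb1 holds 1 GGACAG, and no searched motif overlaps another there. CAGCTG is also found for Cacnb4, at a start other than the one shown. Among the 30 windows of the 21 channel genes in the table, 0 hold CAGCACC, 2 hold GGACAG, 6 hold CAGATG and 10 hold CAGCTG, against 7.14%, 22.2%, 17.2% and 16.3% of all windows. Cacna1h, Scn3a and Scn3b have no window in the table. A match describes letters only, and the absence of one says that these letters are not in this window.

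Proteins that bind or carry these channels were listed as a further group of 41 symbols, of which 37 were on the array and 23 were tested. With time 10 rose and 1 fell in CtrlGFP, and 8 rose and 1 fell in Fezf2GFP, with medians of 1.06 and 0.71 (all genes -0.02 and -0.01). Over all genes tested, 5.88% rose and 6.69% fell in CtrlGFP, and 6.38% and 5.67% in Fezf2GFP. Fgf14, a fibroblast growth factor homologue that binds sodium channel tails, rose in CtrlGFP from 4.06 ± 0.53 (SD, n = 3), with 2 of 3 arrays above the dim level, to 7.27 ± 0.91 (SD, n = 4), by 3.21 (adjusted p = 0.000796, SE 0.47). In Fezf2GFP it stood at 5.77 ± 0.56 (SD, n = 3) and 6.51 ± 0.56 (SD, n = 4), a change of 0.74 that did not pass (adjusted p = 0.376, SE 0.47); the difference between the vectors in this change, -2.47, did not pass either (adjusted p = 0.442). The rise of Fgf14 in CtrlGFP was 1.06 with the mean of all its probe sets. Cntn2, an axonal adhesion molecule, increased by 2.59 in the same comparison (adjusted p = 0.00043, SE 0.34). Fam155a, a subunit of the sodium leak channel complex, rose by 2.12 in CtrlGFP (adjusted p = 0.000437, SE 0.28) and 2.11 in Fezf2GFP (adjusted p = 0.000556, SE 0.28). Cacng4, an AMPA receptor partner of the calcium channel gamma family, rose in Fezf2GFP by 1.94 (adjusted p = 0.00305, SE 0.35; 1.17 with the mean of all its probe sets) and in CtrlGFP by 1.34 (adjusted p = 0.0221, SE 0.35). Cntn2 also rose in Fezf2GFP, by 1.47 (adjusted p = 0.0129, SE 0.34).

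Between the vectors 0 of these 23 partners passed at 24 h and 1 at 48 h, against 1.06% and 3.13% of all genes tested, so the count at 48 h is near that share. The partner called was Stac2, an adaptor that slows inactivation of L-type channels. Stac2 read 2.19, 2.16 and 2.10 in CtrlGFP and 2.16, 2.02 and 2.05 in Fezf2GFP at 24 h, and 2.16, 2.24, 2.94 and 2.88 in CtrlGFP at 48 h. In Fezf2GFP at 48 h it read 4.84, 4.97, 4.52 and 5.58. Only the last group lies above the dim level, so Stac2 was at least 1.96-fold higher there than in CtrlGFP at 48 h (adjusted p = 0.000112) and than in Fezf2GFP at 24 h (adjusted p = 3.7e-05). Both passed in 24 of 24 alternative fits. Stac2 entered the tests only through the group in which it is high, so these p-values are no separate support. At a dim level of 6 it was not tested. Its interaction passed too (adjusted p = 0.0159), in 14 of 23 fits; that test rests on values below the dim level in 3 of the 4 groups, and ended without any 1 array of either 24 h group or without CtrlGFP 48 h replicate 3 (adjusted p = 0.0544 to 0.0761 over these). At 24 h the smallest p among partners was that of Fgf14 (1.71, SE 0.50, adjusted p = 0.183), followed by Gem, a small GTPase that binds Cacnb subunits (1.07, SE 0.39, adjusted p = 0.369).

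RNA of Rest, a repressor known to hold down sodium channel and other neuronal genes outside neurons, was lower at 48 h. The part of REST in the rise of channel genes was not tested. Rest read 6.97, 6.72 and 6.91 in CtrlGFP and 7.02, 6.63 and 6.34 in Fezf2GFP at 24 h, then 5.03, 5.47, 5.63 and 5.21 and 5.28, 5.53, 6.06 and 5.99. All 48 h arrays lay below all 24 h arrays. Rest fell by 1.53 on the log2 scale in CtrlGFP (adjusted p = 0.000954, SE 0.23) and by 0.95 in Fezf2GFP (adjusted p = 0.0165, SE 0.23), the second ending without Fezf2GFP 24 h replicate 1 (adjusted p = 0.0777) or 2 (0.0592). Of 10 genes of REST and its partners, 3 fell with CtrlGFP and 2 with Fezf2GFP, and 0 rose, where over all genes 6.69% and 5.67% fell and 5.88% and 6.38% rose. The others were Ctdsp1, a phosphatase that acts with REST, at -1.42 in CtrlGFP (adjusted p = 0.00474, SE 0.28), and Hdac1, a histone deacetylase, at -0.52 and -0.61 (adjusted p = 0.0442 and 0.023). The calls of Hdac1 held in 8 and 21 of 25 alternative fits; the first ended without 11 of the 14 arrays left out singly, among them CtrlGFP 24 h replicate 2 (0.135) and CtrlGFP 48 h replicate 1 (0.119), and the second without Fezf2GFP 24 h replicate 2 (0.0787) or 3 (0.108) or Fezf2GFP 48 h replicate 1 (0.0532) or 3 (0.0596). None of the 10 passed between the vectors; Ehmt2 and Ctdsp1 had the smallest p at 48 h, at 0.61 each (adjusted p = 0.0887 and 0.270), and at 24 h they stood at 0.19 and -0.32 (adjusted p = 0.784 and 0.750).

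Neuronal markers moved with time as well. Of 9, 4 rose in CtrlGFP and 2 in Fezf2GFP: Stmn2, a growth cone protein, by 3.18 (SE 0.44) and 1.50 (SE 0.44), Syt1, a vesicle calcium sensor, by 2.15 (SE 0.48) and 2.07 (SE 0.48), and in CtrlGFP also Snap25 by 2.18 (SE 0.47) and Tubb3 by 0.80 (SE 0.21). Their summed level (log2) ran from 15.75 to 16.28 in CtrlGFP and 16.29 to 16.37 in Fezf2GFP at 24 h, and from 16.31 to 16.73 and 16.60 to 16.95 at 48 h. Of 8 radial glia markers 2 fell in CtrlGFP with time and 0 in Fezf2GFP, and of 4 intermediate progenitor markers 3 and 2 fell. Among all genes tested, 5.88% rose and 6.69% fell in CtrlGFP, and 6.38% rose and 5.67% fell in Fezf2GFP. These marker lists are short, so their counts rest on few genes. At 48 h the radial glia marker Nes was higher in Fezf2GFP by 1.30 (SE 0.21), as was Calb2, found in Cajal-Retzius cells and in interneurons, by 4.64 (SE 0.51). The other 7 radial glia markers did not pass there, and the median of the 8 was 0.31. Their summed level (log2) overlapped, at 15.71 to 16.02 in CtrlGFP and 15.58 to 16.20 in Fezf2GFP. Of all genes tested, 2.70% were higher in Fezf2GFP at 48 h. Olig2, the oligodendrocyte precursor marker tested, rose with time in CtrlGFP by 1.93 (SE 0.42). In bulk RNA, fewer cells of a type and less RNA per cell cannot be told apart, and the part of a changing share of neurons in the rise of channel genes was not tested. All radial glia, intermediate progenitor and neuronal markers were above the dim level in at least 3 arrays. All 6 microglia and 5 meninges markers, both erythroid markers on the array and 5 of 6 endothelial markers were below it on all 14 arrays, as were Trp73 and Lhx5 of Cajal-Retzius cells, Sox10 and Cspg4 of oligodendrocyte precursors and Acta2 of mural cells. Of 4 mural markers 2 were tested and 0 passed, with a median log2 fold change for Fezf2GFP of 0.77 at 24 h and 1.12 at 48 h. The mural summed level (log2) ran from 7.35 to 8.98 in CtrlGFP and 7.13 to 10.20 in Fezf2GFP at 24 h. At 48 h it ran from 7.84 to 9.40 and 8.83 to 10.12. The part of mural cells in the channel results was not tested.

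**Figure D4:**
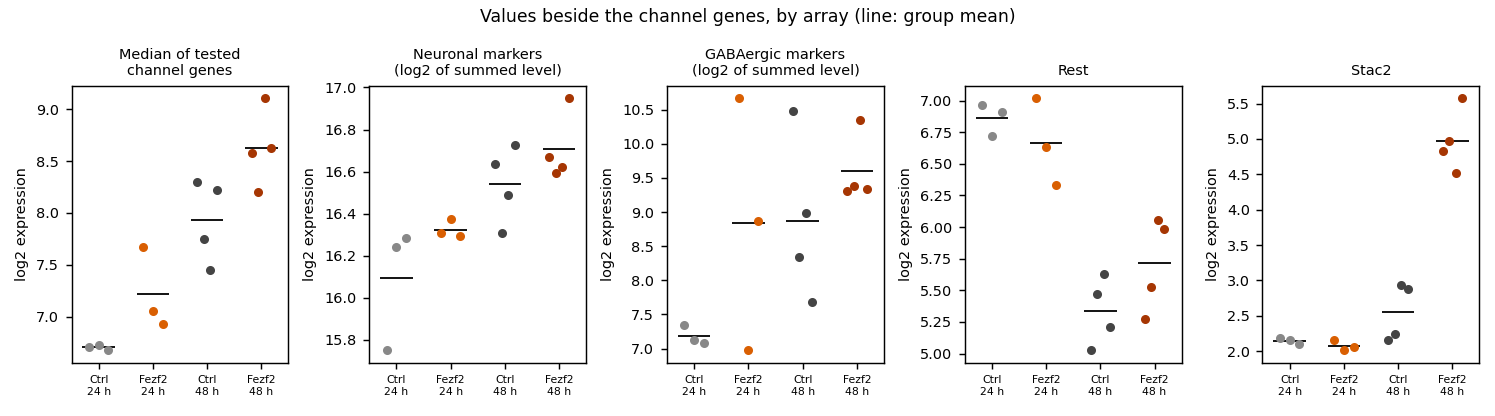
Per array (points, with the group mean as a line): the median log2 expression of the 18 tested channel genes, the log2 summed level of 9 neuronal and of 7 GABAergic markers, and the levels of Rest and Stac2; the y axes differ between panels and do not start at 0. The channel median runs from 6.68 to 7.68 at 24 h and from 7.45 to 9.11 at 48 h, Rest is at most 6.06 in the 48 h arrays and at least 6.34 in the 24 h arrays, and the GABAergic sum is highest in Fezf2GFP 24 h replicate 1 and CtrlGFP 48 h replicate 1.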

How the data were processed

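Expression was measured on 14 Affymetrix arrays from RNA amplified by 2 rounds of in vitro transcription, per the labels' protocols. The deposited values are log2 expression per probe set, and GCRMA is the software that the submitters' processing notes name; no source used here gives its version or settings. Background correction, normalization and the summary over probes are thus the authors', and dim genes are compressed toward a floor. Array medians ran from 3.26 to 3.50, and arrays of a group correlated at 0.942 to 0.993.

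Probe sets with exactly 1 symbol in the platform annotation were used (34945 of 45037), and per symbol that with the highest mean. Genes above 4 in at least 3 arrays were tested with limma 3.58.1 (lmFit, eBayes, 1 mean per group, 10 residual degrees of freedom) in R 4.3.3, with Benjamini-Hochberg adjustment over 10295 genes and a threshold of 0.05. SE is limma's standard error. Where all arrays of a group were dim, the fold was computed against that level and is written "at least". The number of arrays limits precision. Members, lists and the rule for naming genes (those that passed in any comparison, the 2 smallest p per family between vectors, up to 3 per partner list and comparison) were chosen with earlier results of these data known. In simulated data (10295 genes, 200 changed), 80.0% of genes changed by 2 were recovered between the vectors at 24 h and 86.0% at 48 h. For genes changed by 1 the shares were 40.0% and 50.0%. With time, 83.0% of genes changed by 2 were recovered in CtrlGFP and 88.0% in Fezf2GFP, and 38.0% and 41.0% of those changed by 1. False calls were 9 of 129 calls at 24 h and 8 of 144 at 48 h between the vectors. With time they were 8 of 129 in CtrlGFP and 8 of 137 in Fezf2GFP. The simulated noise was independent between genes and arrays. It held no shift of many genes in 1 array, as seen for the channel genes, so recovery in the data may differ.

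Alternatives were no filter, a dim level of 6, quantile normalization, median centring, the mean of all probe sets, only the groups compared, array weights, a variance trend with a robust prior, a replicate block, removal of the trend with gene span, leaving out both arrays with the highest medians, and leaving out each array.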

Additional observations from a re-analysis of the deposited data

Results flagged for a closer look

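For the 18 tested channel genes in both 48 h groups, a single array stood apart in 4 of 36 sets of 4 values. Dixon's test was used at the 95% level, which flags about 1 in 20 sets by chance. The genes share the same arrays, so these sets are not independent and the count carries no test. Cacna1h read 9.04 in Fezf2GFP 48 h replicate 3, above the 8.62 to 8.67 of the other arrays of that group. Cacnb1 read 7.68 in Fezf2GFP 48 h replicate 4, below the 8.14 to 8.24 of the others. Hcn2 read 4.90 in Fezf2GFP 48 h replicate 3, against 4.67 to 4.68. Hcn3 read 7.65 in Fezf2GFP 48 h replicate 1, against 8.16 to 8.21. Each of these lies in Fezf2GFP at 48 h, and the single arrays of Cacnb1 and Hcn3 are those closest to the CtrlGFP arrays.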

How the results depend on the processing

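The number of channel genes called from 24 h to 48 h was 8 with CtrlGFP (6 to 9 without single arrays) and 8 with Fezf2GFP (5 to 11, the lowest without Fezf2GFP 24 h replicate 3); array weights gave 14 and 13. At 24 h, 1 of the channel genes was called between vectors (0 to 2 without single arrays); 0 with no filter, the mean of all probe sets, only the groups compared, the replicate block or without both arrays with the highest medians, 2 after removing the dependence on gene span, and 7 (6 higher, 1 lower) with array weights. At 48 h, 1 was called (0 to 3 without single arrays); 0 with quantile normalization, the mean of all probe sets, only the groups compared or after removing the dependence on gene span, and 2 with a dim level of 6, median centring, array weights or the replicate block. The interaction gave 0 of the channel genes throughout (0 to 0 without single arrays). Array weights ran from 0.202 to 8.56 and their fit stopped before convergence. They raised the calls over all 10295 genes as well. With array weights 2030 genes were called at 24 h and 550 at 48 h between vectors, against 109 and 322 without. With time the weights gave 3077 genes in CtrlGFP and 3133 in Fezf2GFP, against 1294 and 1241.

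Same-numbered arrays correlated in their deviations at -0.40 to 0.32, above 0.1 in 5 of 13 pairs. Between the vectors the pairs stood at 0.32, 0.22 and -0.01 at 24 h, and at -0.06, 0.29, 0.02 and 0.27 at 48 h. Pairs across times ran from -0.40 to 0.19. Whether same-numbered arrays share a batch was not tested. With the replicate block the counts were 6 and 9 with time. Signs turned only for differences that did not pass. After removing the dependence on gene span Cacna1b stood at -0.047 at 48 h, Cacna2d1 at -0.013 at 48 h and -0.16 with time in Fezf2GFP, and Hcn2 at -0.058 at 48 h and 0.030 with time in CtrlGFP. With the mean of all probe sets Cacna1c stood at 0.17 at 24 h, Scn1a at 0.030 at 48 h, and Cacna2d1 at -0.13 at 48 h and -0.17 with time in Fezf2GFP. With array weights Cacna2d1 stood at -0.023 at 48 h and -0.11 with time in Fezf2GFP, Cacnb4 at -0.045 and Scn3a at -0.14 at 48 h. With median centring Cacna1c stood at 0.071 and Hcn2 at 0.0052 at 24 h, and Hcn2 at 0.0049 with time in CtrlGFP. With quantile normalization Hcn3 stood at -0.074 at 24 h. Without single arrays, Cacna1b ran from -0.016 to 0.55, Scn1a from -0.34 to 0.082 and Scn2b from -0.39 to 0.21 at 48 h, and Cacna1c from -0.24 to 0.16 at 24 h. Hcn2 ran from -0.15 to 0.026 at 24 h, -0.067 to 0.099 at 48 h, -0.11 to 0.054 with time in CtrlGFP and -0.039 to 0.14 in Fezf2GFP.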
